A study of Mus musculus with 10 samples.

Results

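Sinusoidal endothelial genes were examined in the livers of mice after injection of CD95-Ab, an antibody that activates the death receptor CD95 (Fas). The 10 genes (Stab1, Stab2, Lyve1, Clec4g, Fcgr2b, Kdr, Gata4, Oit3, Dnase1l3 and Pecam1) were chosen by name as genes known from liver sinusoidal endothelial cells, out of 38922 genes in the expression data, and all 10 were among the 13719 genes expressed highly enough to be tested. The choice was made with earlier results of these data known. Wild-type male C57BL/6N mice, 6 weeks old, received either 0.5 µg/g of body weight of CD95-Ab (n = 5) or an equal volume of saline (n = 5), intraperitoneally, and livers were taken 6 h later. Each mouse gave 1 RNA-seq library from whole liver. The total per mouse was 25965699 to 62097636 counts in the saline group and 27480796 to 44962196 counts in the CD95-Ab group. The comparison asks how RNA of these genes differed between livers with acute CD95-induced injury and control livers.

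Liver sinusoidal endothelial cells line the capillaries between the plates of hepatocytes. They have open pores and no continuous basement membrane, and they remove waste macromolecules from blood through scavenger receptors, lectins and an Fc receptor. In injured livers they can lose this specialised state and take on features of ordinary capillary endothelium, and the transcription factor Gata4 is known to maintain the sinusoidal state. The receptor of CD95-Ab is carried by these cells as well as by hepatocytes.

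The 10 genes are all protein coding and all lie on the minus strand in GRCm38 (GENCODE mouse release 21). Among the receptors, Stab1 spans chr14:31139013-31168641, Stab2 chr10:86841198-87008025, Lyve1 chr7:110850607-110863239, Clec4g chr8:3707064-3720651, Fcgr2b chr1:170958617-170976547 and Kdr chr5:75932827-75978458. The other members are Gata4 at chr14:63198922-63271692, Oit3 at chr10:59422958-59441778, Dnase1l3 at chr14:7964533-7994573 and Pecam1 at chr11:106654217-106750628. Promoter sequences from RefSeq (GRCm38.p6) matched 5 of the 10 genes. Of these 4 are shown, those of Stab1, Clec4g and Stab2, which rose, and of Kdr, which did not pass the test. The other, Fcgr2b, also rose, but its window lies wholly inside the gene as GENCODE places it, so no bases were left to print. Each sequence is the minus strand, read 5′ to 3′, and ends at the last base before the gene as GENCODE places it. The windows are chr14:31168642-31168891 for Stab1, chr8:3720652-3720901 for Clec4g, chr10:87008026-87008192 for Stab2 and chr5:75978459-75978705 for Kdr. Capitals mark the letters AGGAAG or CGGAAG on either strand, which are the core of the motif of ETS transcription factors, a family active in endothelial cells.
Stab1: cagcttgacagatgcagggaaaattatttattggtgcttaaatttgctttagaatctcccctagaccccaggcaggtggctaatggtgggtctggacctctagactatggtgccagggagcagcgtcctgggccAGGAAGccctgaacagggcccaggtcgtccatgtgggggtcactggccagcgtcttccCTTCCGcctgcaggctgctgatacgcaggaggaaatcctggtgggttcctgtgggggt
Clec4g: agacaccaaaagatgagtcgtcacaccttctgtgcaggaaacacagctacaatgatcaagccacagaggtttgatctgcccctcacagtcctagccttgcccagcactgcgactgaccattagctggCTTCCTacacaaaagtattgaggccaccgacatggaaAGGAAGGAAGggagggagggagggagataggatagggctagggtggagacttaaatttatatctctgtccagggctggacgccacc
Stab2: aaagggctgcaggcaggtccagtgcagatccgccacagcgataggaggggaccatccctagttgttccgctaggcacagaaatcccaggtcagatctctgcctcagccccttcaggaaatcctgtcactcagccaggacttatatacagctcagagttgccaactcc
Kdr: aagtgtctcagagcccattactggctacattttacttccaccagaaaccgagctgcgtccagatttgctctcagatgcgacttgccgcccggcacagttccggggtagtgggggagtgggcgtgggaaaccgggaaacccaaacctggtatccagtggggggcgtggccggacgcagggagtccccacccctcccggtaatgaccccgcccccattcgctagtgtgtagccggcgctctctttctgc
In the 250 bases before the RefSeq start, ETS letters were present in Stab1 (2 matches), Clec4g (3 matches, of which 2 share letters) and Stab2 (1 match, 40 bases before the start and inside the GENCODE gene, so not in the printed part). They were absent from the windows of Kdr, which did not pass the test, and of Fcgr2b, which rose, and 39.2% of all 32851 promoter windows held them. The GATA letters AGATAA or TGATAA, on either strand, were in 0 of the 5 windows and in 16.6% of all windows. The Kdr window differed in base composition, with a GC content of 61.6% and 16 CpG dinucleotides, against medians of 52.4% and 6 over all windows. These matches describe letters in the windows only.

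After CD95-Ab, 8 of the 10 genes were higher than in livers of saline-injected controls, 0 were lower and 2, Kdr and Gata4, did not pass the test (quasi-likelihood test of edgeR, FDR of 0.05 or less, the Benjamini-Hochberg adjusted p over all tested genes). Of all tested genes, 25.4% were called higher and 22% lower (47.3% in either direction), so a call in itself was common in these livers. Because the 10 genes were chosen with earlier results of these data known, their count beside these shares is a description only. At an unadjusted p under 0.05 also 0 members were lower. The median log2 fold change of the 10 genes was 0.95, against 0.01 for all tested genes. The hyaluronan receptor Lyve1 was the only member with a log2 fold change of 2 or more, a size that 6.59% of tested genes also reached while passing the FDR threshold. For 5 members, every treated mouse had a higher level than every control (Lyve1, Pecam1, Dnase1l3, Clec4g and Stab2), and 18.6% of tested genes separated the groups in this direction. Levels below are CPM, counts scaled to a total of 1000000 adjusted by TMM factors.

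**Figure D1:**
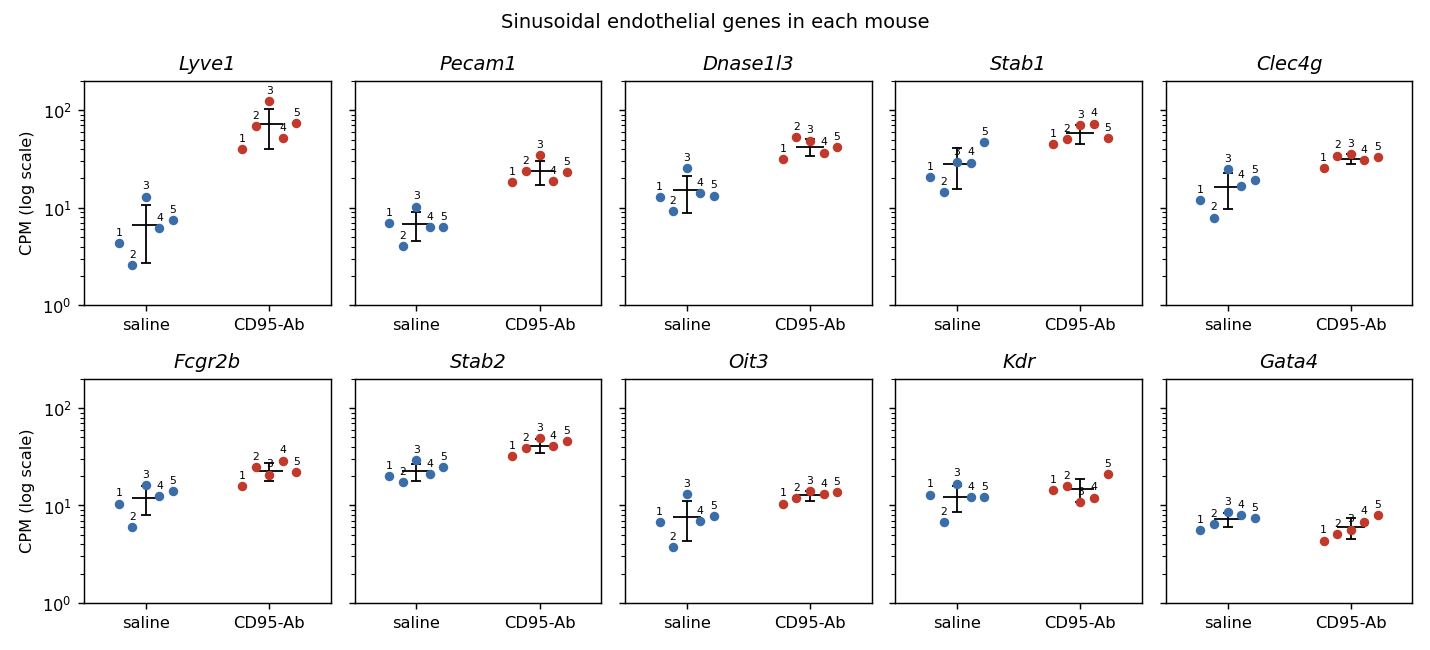
CPM (log scale) of each of the 10 genes in each mouse, with blue points for saline and red points for CD95-Ab, small digits for the replicate number, and a black bar with whiskers for the mean ± SD of 5 mice. The groups do not overlap for Lyve1, Pecam1, Dnase1l3, Clec4g and Stab2, and they overlap most for Kdr and Gata4.

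Among the scavenger receptors, Lyve1, which binds hyaluronan, changed most. It was at 4.35, 2.58, 13.0, 6.20 and 7.45 CPM in saline replicates 1 to 5 and at 39.9, 69.0, 124, 52.3 and 73.7 CPM in CD95-Ab replicates 1 to 5. The lowest mouse injected with CD95-Ab was thus above the highest control, although the spread within each group was the widest of all members, with a coefficient of variation of 59.2% in controls and 44.7% after CD95-Ab. The log2 fold change of Lyve1 was 3.41 ± 0.43 (SE, n = 5 per group), a 10.7-fold rise with a 95% interval of 5.58 to 20.4 (edgeR, FDR = 6.21e-05). Only 283 tested genes had a larger log2 fold change than Lyve1.

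The stabilins Stab1 and Stab2, large receptors that clear hyaluronan and modified lipoproteins, both rose, by less than Lyve1. Stab2 was at 20.0, 17.5, 29.0, 21.1 and 24.9 CPM in controls and at 32.2, 38.9, 49.3, 40.4 and 45.6 CPM after CD95-Ab, with no overlap. Its log2 fold change was 0.88 ± 0.16 (SE, n = 5 per group; edgeR, FDR = 8.18e-04), the smallest standard error among the members. Stab1 was at 20.5, 14.5, 29.6, 29.1 and 47.6 CPM in controls and at 44.99, 50.4, 70.0, 73.0 and 51.5 CPM after CD95-Ab. Here saline replicate 5 reached into the range of the treated mice, and 4 of 5 mice injected with CD95-Ab lay above it. The log2 fold change of Stab1 was 1.04 ± 0.28 (SE, n = 5 per group; edgeR, FDR = 0.00867). Nt5dc2, a gene on the opposite strand, overlaps Stab1 and had 927 counts over the 10 mice against 14611 for Stab1, and whether the counting used strand is not given in the sources used here.

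The lectin Clec4g (LSECtin), which binds glycans of pathogens and of lymphocytes, and Fcgr2b, the inhibitory IgG receptor through which sinusoidal endothelium takes up immune complexes, both rose. Clec4g was at 12.0, 7.92, 24.8, 16.9 and 19.2 CPM in controls and at 25.8, 34.3, 35.6, 31.0 and 32.9 CPM after CD95-Ab. The highest control and the lowest treated mouse differed by about 1 CPM, so the separation was narrow, and the log2 fold change was 0.98 ± 0.25 (SE, n = 5 per group; edgeR, FDR = 0.00687). Fcgr2b was at 10.4, 5.99, 16.2, 12.5 and 13.9 CPM in controls and at 15.9, 24.6, 20.8, 28.9 and 22.1 CPM after CD95-Ab. Only CD95-Ab replicate 1 fell below the highest control, and the log2 fold change was 0.93 ± 0.24 (SE, n = 5 per group; edgeR, FDR = 0.00756).

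Pecam1 (CD31), an adhesion molecule of endothelial junctions that is also found on platelets and leukocytes, showed the second largest change. It was at 7.01, 4.06, 10.3, 6.35 and 6.38 CPM in controls and at 18.3, 23.7, 34.99, 18.9 and 23.2 CPM after CD95-Ab. No mice overlapped, and the rise was 3.49-fold with a 95% interval of 2.42 to 5.05 (log2 fold change 1.80 ± 0.24, SE, n = 5 per group; edgeR, FDR = 1.06e-04).

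The secreted members also rose. Dnase1l3, a nuclease that degrades extracellular DNA bound to chromatin and membrane particles, was at 13.0, 9.19, 25.7, 14.2 and 13.3 CPM in controls and at 31.5, 53.3, 49.0, 36.8 and 42.0 CPM after CD95-Ab. The groups were apart, with a 2.82-fold rise and a 95% interval of 1.93 to 4.12 (log2 fold change 1.497 ± 0.25, SE, n = 5 per group; edgeR, FDR = 4.69e-04). Oit3, a protein with a zona pellucida domain that is used as a marker of these cells, was at 6.70, 3.77, 13.1, 6.97 and 7.84 CPM in controls and at 10.5, 12.0, 14.0, 13.2 and 13.8 CPM after CD95-Ab. Saline replicate 3 lay among the treated mice, and the other controls lay below them all. The log2 fold change of Oit3 was 0.72 ± 0.26 (SE, n = 5 per group; edgeR, FDR = 0.0365), and this call was lost when any of 8 of the 10 mice was left out. It was kept without saline replicate 3 or without CD95-Ab replicate 1, and over the 10 fits the log2 fold change ranged from 0.54 to 0.996 and the FDR from 0.00252 to 0.0791.

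Kdr and Gata4, the VEGF receptor of endothelium and the transcription factor of the sinusoidal state, were the members that did not pass the test. Kdr was at 12.9, 6.76, 16.8, 12.2 and 12.2 CPM in controls and at 14.4, 15.7, 10.9, 12.1 and 21.1 CPM after CD95-Ab. Only CD95-Ab replicate 5 was above every control, and the log2 fold change was 0.29 with a 95% interval of -0.22 to 0.80 (edgeR, FDR = 0.336). Gata4 was at 5.599, 6.43, 8.48, 8.004 and 7.47 CPM in controls and at 4.36, 5.06, 5.65, 6.82 and 7.97 CPM after CD95-Ab. The ranges overlapped, and the log2 fold change of -0.27 had a 95% interval of -0.67 to 0.14 (edgeR, FDR = 0.257). These intervals leave room for a moderate change of either gene, and they do not reach the median change of the 10 members, 0.95.

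**Figure D2:**
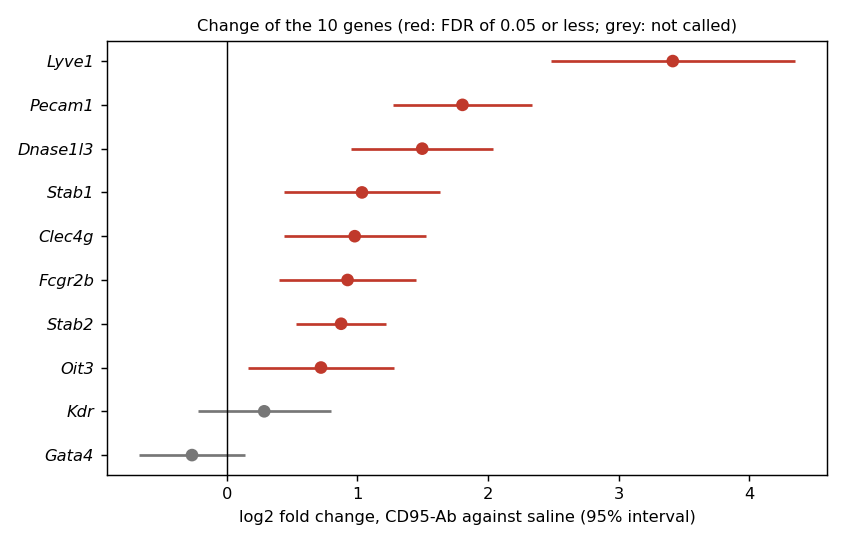
Log2 fold change of each gene after CD95-Ab against saline, with horizontal lines for the 95% interval of the edgeR fit, red where the FDR is 0.05 or less and grey where it is not. Lyve1 stands at 3.41, Pecam1 and Dnase1l3 at 1.80 and 1.497, 5 genes lie between 0.72 and 1.04, and the intervals of Kdr and Gata4 include 0.

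The members did not move as 1 block. The ratio of every pair of members within the same mouse was compared between the groups over 45 pairs (exact two-sided permutation test, Benjamini-Hochberg adjusted over the 45 pairs). The scaling of totals enters this measure only through the 0.1 CPM added to each level. The ratio differed for 26 pairs at an adjusted p of 0.05 or less, the smallest adjusted p being 0.0149, which belongs to the smallest exact p that 5 mice against 5 allow, 0.00794. Lyve1 rose more than each of the other 9 genes. The mean log2 ratio of Stab2 to Lyve1 was 1.90 in controls and -0.71 after CD95-Ab, so it fell by 2.61. Even against Pecam1, the next in size, the log2 ratio of Lyve1 shifted by 1.68.

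Gata4 stood at the other end, with a lower ratio after CD95-Ab in 8 of its 9 pairs, all but that with Kdr. The log2 ratio of Gata4 to Pecam1 fell by 2.09 and that of Gata4 to Dnase1l3 by 1.83. Kdr rose less than Lyve1, Pecam1, Dnase1l3 and Clec4g, whereas its other 5 pairs, including those with both stabilins, missed the threshold. Pecam1 rose more than 6 other members and Dnase1l3 more than 5. Among Stab1, Stab2, Clec4g, Fcgr2b and Oit3, no pair passed, and the differences in log2 ratio within this group were at most 0.30, which does not show that these genes changed alike.

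**Figure D3:**
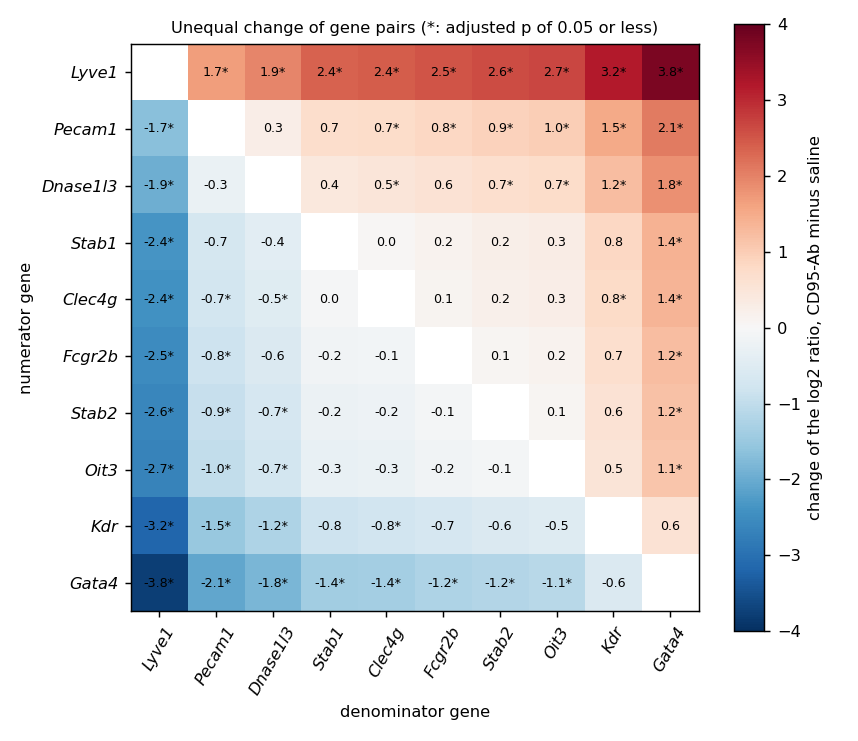
Difference between groups (CD95-Ab minus saline) of the mean log2 ratio of each pair of genes within a mouse, with the numerator gene in rows, the denominator gene in columns, red for a numerator that rose more, blue for one that rose less, and an asterisk for an adjusted p of 0.05 or less. The row of Lyve1 is red throughout and the row of Gata4 carries 8 asterisks, while Stab1, Clec4g, Fcgr2b, Stab2 and Oit3 form a pale square without any.

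The order of the members by level also differed between the groups. Levels between genes were compared as FPKM, in which counts are divided by transcript length. In control livers Clec4g had the highest median FPKM, 14.1, followed by Stab1 at 11.5, Fcgr2b at 9.48 and Stab2 at 4.8. The other 6 members had medians between 2.08 (Pecam1) and 3.03 (Dnase1l3), and the ranges of all neighbours in the order overlapped. After CD95-Ab, Lyve1 moved from rank 8, with a median FPKM of 2.43, to rank 1, with 27.0, and its range overlapped those of Clec4g at 26.8 and Stab1 at 21.5. Fcgr2b at 15.9 and then Stab2 at 9.11 came next, each below the range of the gene before it. Gata4 moved from rank 6 to rank 10, with median FPKM of 2.87 in controls and 2.20 after CD95-Ab, and its range overlapped that of its neighbour Kdr.

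Mice of the same group differed in most members at once. Saline replicate 2 had the lowest CPM of the controls for 9 of the 10 genes, and saline replicate 3 had the highest for 9. The summed CPM of the 10 genes was 78.7 in saline replicate 2 and 187 in saline replicate 3. Among treated mice, CD95-Ab replicate 1 was lowest for 9 genes, with a sum of 238 CPM, and CD95-Ab replicate 3 was highest for 5, with a sum of 414 CPM, but had the lowest Kdr. The 2 ranges of sums did not overlap. The Kupffer cell genes ran the other way in controls, with a sum of 625 CPM in saline replicate 2, their highest, and 187 CPM in saline replicate 3, their lowest. Their part in the spread of the members was not tested.

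**Figure D4:**
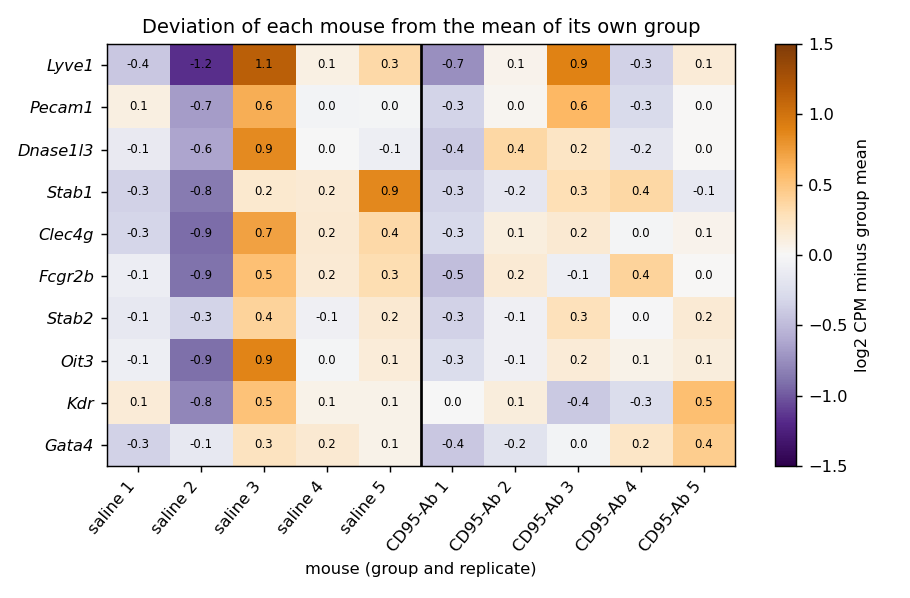
Log2 CPM of each gene in each mouse minus the mean of that mouse's own group, with genes in rows and mice in columns. Saline 2 is below its group mean and saline 3 above it in all 10 rows, and CD95-Ab 1 shows no row above its group mean.

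The genes whose deviations from the group means were most like the mean deviation of the members were Cd300lg (Pearson r = 0.965 over 10 mice), Jam2 (0.964), Cyyr1 (0.959), Thbd (0.956) and Gja1 (0.955). These correlations describe likeness within groups, over libraries that share depth and scaling, and 37 of 13709 other tested genes had an r over 0.9. The 5 genes had unequal differences between the groups. Thbd, the thrombin receptor thrombomodulin, had a log2 fold change of 4.10 ± 0.58 (SE; edgeR, FDR = 1.52e-04), and Jam2, a junctional adhesion molecule, had 2.28 ± 0.38 (SE; FDR = 4.67e-04). Cd300lg, a receptor of capillary endothelium, was at 5.199 CPM in controls and 5.18 CPM after CD95-Ab (log2 fold change -0.01 ± 0.29, SE; FDR = 0.984).

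Other genes of sinusoidal endothelium were split. Of 15 tested, 8 rose, 0 fell and 7 did not pass, with a median log2 fold change of 0.76. The shares over all tested genes, 25.4% higher and 22% lower, apply beside the count of this list and of each list below. Thbd rose from 3.50 ± 3.12 to 60.1 ± 25.3 CPM (mean ± SD, n = 5). Fabp4, a fatty acid carrier of capillary endothelium, rose from 5.95 ± 3.51 to 37.3 ± 26.9 CPM. Cdh13, a cadherin without a cytoplasmic tail, was low in both groups and rose from 0.62 ± 0.37 to 2.35 ± 0.70 CPM. The Wnt ligands of central vein endothelium did not pass, with Wnt2 at 1.26 and 1.28 CPM and Wnt9b at 0.57 and 0.42 CPM. Better expressed genes did not pass either, with Gpr182 at 8.90 and 9.16 CPM, Mrc1 at 20.1 and 23.1 CPM and Maf at 16.5 and 14.1 CPM. Flt4, at 11.1 and 18.9 CPM, and Ntn4, at 2.66 and 5.21 CPM, also missed the threshold. Rspo3, which enhances Wnt signals, rose from 2.30 to 6.68 CPM.

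Genes used as general markers of endothelium, listed without regard to the type of vessel, mostly rose. Of 24 tested, 19 rose, 1 fell and 4 did not pass, and the median log2 fold change was 1.27. Cdh5, the cadherin of endothelial junctions, rose from 10.3 ± 0.63 to 59.0 ± 18.9 CPM (mean ± SD, n = 5; log2 fold change 2.51 ± 0.20, SE; edgeR, FDR = 2.21e-06). Larger log2 fold changes were found for Sox7, a transcription factor of endothelium, at 3.01, and for Ecscr, a regulator of endothelial migration, at 2.58. Sox18, a relative of Sox7, fell from 0.98 to 0.49 CPM (log2 fold change -0.99 ± 0.36, SE; FDR = 0.0389), a call that was lost in 6 of the 10 fits that each left out 1 mouse. These 6 left out saline replicates 3, 4 or 5 or CD95-Ab replicates 1, 2 or 3, and over the 10 fits the FDR ranged from 0.0114 to 0.0873.

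Nearly all activation genes of endothelium rose, with 10 of 11 tested higher, 0 lower and a median log2 fold change of 3.44. Icam1, which holds leukocytes at the vessel wall, rose from 10.9 ± 2.60 to 171 ± 57.3 CPM (mean ± SD, n = 5; log2 fold change 3.97 ± 0.25, SE; edgeR, FDR = 6.42e-07). Sele, which captures rolling leukocytes and is made by activated endothelium, was between 0.028 and 0.115 CPM in controls and between 7.77 and 21.6 CPM after CD95-Ab. With so few counts in controls, Sele entered the test through the treated mice and could hardly have been called lower. Plaur, the urokinase receptor, which leukocytes also carry, rose from 0.38 ± 0.087 to 22.3 ± 7.10 CPM. The tissue factor gene F3 did not pass, at 3.91 and 4.11 CPM.

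Around Kdr, 4 of 10 tested genes of the VEGF and Notch pathways rose, 2 fell and 4 did not pass. Over all tested genes, 25.4% were called higher and 22% lower, so these counts do not set the pathways apart. The other VEGF receptor of blood vessels, Flt1, rose from 4.55 ± 1.87 to 19.8 ± 7.24 CPM (mean ± SD, n = 5; log2 fold change 2.11 ± 0.32, SE; edgeR, FDR = 2.5e-04). The co-receptor Nrp2 rose by a log2 fold change of 2.13 and the Notch target Hes1 by 1.11. The call of Hes1 (FDR = 0.0453) was lost with total counts only, with upper quartile factors and in 7 of the 10 fits without 1 mouse (all but those without saline replicates 2 or 4 or CD95-Ab replicate 1), with an FDR of up to 0.113. The Notch ligand Dll4 fell by 0.93 and the ligand Vegfb by 0.88 on the log2 scale. Vegfa, the main ligand of Kdr, was at 112 ± 39.9 CPM in controls and 157 ± 41.7 CPM after CD95-Ab and did not pass (FDR = 0.112).

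BMP9 and BMP10 act on endothelium through the receptor Acvrl1 (ALK1), and of 12 tested genes of this pathway 6 rose, 1 fell and 5 did not pass. Id3, a target gene of BMP signals, rose from 20.3 ± 13.9 to 223 ± 77.0 CPM (mean ± SD, n = 5). Bmp10 rose by a log2 fold change of 2.26 and Acvrl1 by 1.82. The transducer Smad9 fell from 10.1 ± 2.38 to 0.57 ± 0.27 CPM (log2 fold change -4.10 ± 0.30, SE; edgeR, FDR = 1.82e-06). Id1, a close relative of Id3, was at 6.12 and 6.49 CPM and did not pass.

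Of the relatives and cofactors of Gata4, 4 were tested. Zfpm2, a cofactor of GATA factors, rose from 0.46 to 1.09 CPM and Gata2 from 0.47 to 0.96 CPM, while Zfpm1, another such cofactor, fell from 19.7 ± 1.78 to 11.6 ± 2.78 CPM (mean ± SD, n = 5; edgeR, FDR = 0.00164). The call of Gata2 (FDR = 0.0447) was lost with upper quartile factors, with no filter on low counts and in 6 of 10 fits without 1 mouse (saline replicates 1, 2, 3 or 4 or CD95-Ab replicates 3 or 4), with an FDR of up to 0.121. Gata6 was at 4.19 and 5.66 CPM and did not pass.

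**Figure D5:**
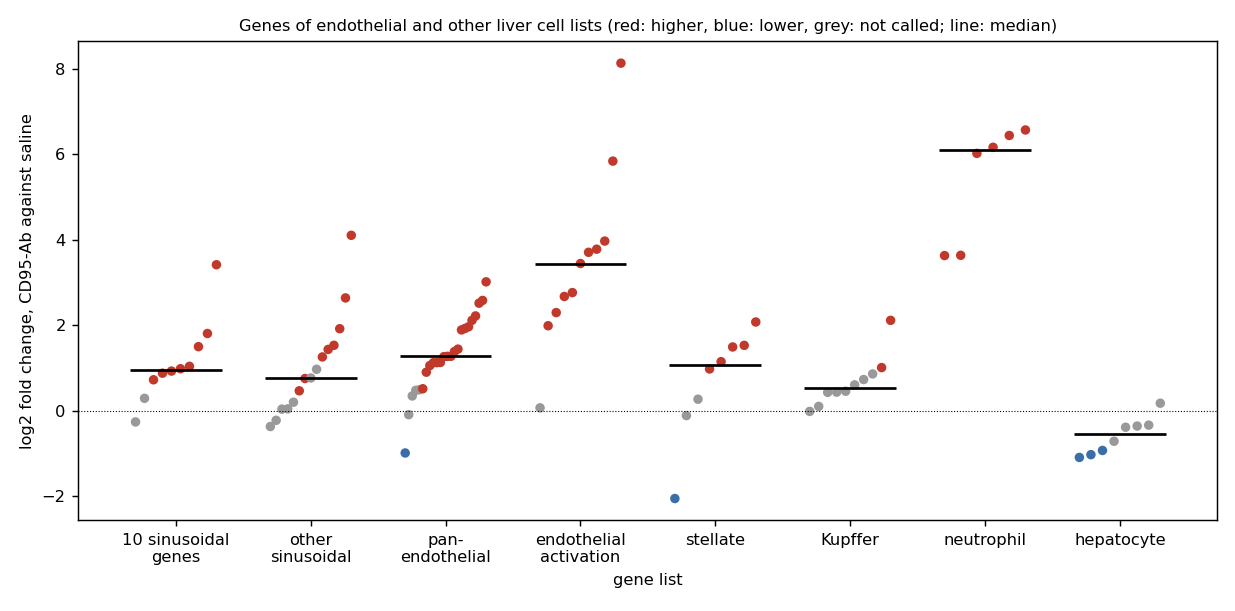
Log2 fold change of every tested gene of the members and of 7 other gene lists, each point a gene, red for higher and blue for lower at an FDR of 0.05 or less, grey for neither, with a black line at the median of the list. The endothelial activation and neutrophil genes lie highest, with medians of 3.44 and 6.09, and 7 of the 8 hepatocyte genes lie below 0, with a list median of -0.55.

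In whole liver, more cells of a type and more RNA per cell cannot be told apart, and the markers of other cells moved as well. All 6 tested neutrophil genes, of 8 listed, rose (median log2 fold change 6.09), and the summed CPM of the list was 4.08 to 10.6 in controls and 109 to 443 after CD95-Ab. S100a8, a calcium-binding protein of neutrophils, rose from 0.89 to 81.3 CPM and S100a9, its partner, from 1.83 to 133 CPM, while the collagenase Mmp8 was between 0 and 0.33 CPM in controls and between 6.58 and 27.0 CPM after CD95-Ab. Genes as low in controls as Mmp8, and as Gp9 below, entered the test through the treated mice. They could hardly have been called lower, so their rise adds little to the counts of genes that rose. Platelet genes, which bear on Pecam1, rose for 4 of 5, with sums of 2.45 to 9.08 CPM in controls and 10.04 to 31.3 CPM after CD95-Ab. Among them the chemokines Pf4 and Ppbp rose by log2 fold changes of 2.58 and 3.36, and the adhesion receptor subunit Gp9 was at no more than 0.15 CPM in any control and at 0.48 CPM or more in each treated mouse. The part of these cells in the rise of Pecam1 was not tested.

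B cells and macrophages carry Fcgr2b, and macrophages can carry Stab1. Among B cell genes, Cd79a, a subunit of the B cell receptor, rose from 0.45 to 2.26 CPM and Ms4a1 (CD20), a membrane protein of B cells, from 0.19 to 0.82 CPM. The groups overlapped for Cd79a, at 0.14 to 0.86 CPM in controls and 0.83 to 5.13 CPM after CD95-Ab. Ms4a1 was at no more than 0.33 CPM in any control. It entered the test through the treated mice and could hardly have been called lower. Cd79b, at 0.69 and 1.52 CPM, and Ighm, at 4.23 and 9.65 CPM, did not pass, but both passed without CD95-Ab replicate 1. Of 10 Kupffer cell genes 2 rose and 8 did not pass, with a median log2 fold change of 0.53. The scavenger receptor Marco rose by a log2 fold change of 2.11 and the secreted protein Cd5l by 1.01. Among those that did not pass, Clec4f, at 91.9 and 98.4 CPM, and Vsig4, at 19.1 and 18.8 CPM, changed least. The others that did not pass were Adgre1, C1qb, Csf1r, C1qc, Timd4 and C1qa. Their log2 fold changes were 0.86, 0.73 (FDR = 0.0533), 0.60, 0.45, 0.43 and 0.43. Over all tested genes, 25.4% were called higher. The Kupffer sum was 187 to 625 CPM in controls and 360 to 787 CPM after CD95-Ab, so the groups overlapped. Without saline replicate 2, 5 genes of the list passed, and Cd5l (FDR = 0.0398) lost its call with total counts only, with upper quartile factors and in 6 of 10 fits without 1 mouse (saline replicates 3, 4 or 5 or CD95-Ab replicates 1, 2 or 5), with an FDR of up to 0.098. Lyve1 also marks lymphatic vessels, and of 4 lymphatic genes 2 rose. These were Pdpn, a membrane glycoprotein, from 0.33 to 1.98 CPM, and Reln, which stellate cells also make, from 22.1 to 62.0 CPM. Pdpn spread widely after CD95-Ab, at 0.52 to 6.41 CPM, and was at 0.24 to 0.46 CPM in controls. The lymphatic chemokine Ccl21a was at 1.38 and 0.92 CPM. The summed CPM of the lymphatic list was 124 to 164 in controls and 93.6 to 216 after CD95-Ab, most of it from Prox1, which hepatocytes express. The part of these cells in the members' changes was not tested.

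Stellate cells, the pericytes of the sinusoids, express Gata4 as well. Of 8 stellate genes 5 rose, 1 fell and 2 did not pass, with sums of 205 to 278 CPM in controls and 423 to 647 CPM after CD95-Ab. The nerve growth factor receptor Ngfr rose by a log2 fold change of 2.07 and the matrix protein Dcn by 1.53, while Hand2, a transcription factor of stellate cells, fell from 3.16 ± 0.65 to 0.76 ± 0.50 CPM (mean ± SD, n = 5; edgeR, FDR = 0.00218). Of 8 hepatocyte genes, 0 rose, 3 fell and 5 did not pass, with a median log2 fold change of -0.55. Over all tested genes, 22% were called lower. Albumin (Alb) fell from 84727 ± 8839 to 41434 ± 12103 CPM (mean ± SD, n = 5; edgeR, FDR = 0.00529), and the urea cycle enzyme Ass1 and the thyroid hormone carrier Ttr fell by 1.10 and 0.93 on the log2 scale. The summed CPM of the hepatocyte genes was 104534 to 127200 in controls and 49188 to 85416 after CD95-Ab. Its part in the rise of the members, whose CPM are shares of each library, was not tested. Of the cell type genes named here, 0 had 0 counts in every mouse.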

How the data were processed

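RNA from livers of 5 saline-injected mice and 5 mice injected with CD95-Ab was prepared by the authors from 500 ng per sample using TruSeq reagents, with paired reads of 100 bp. The authors assigned reads with RSEM 1.2.19 and deposited, for every gene and mouse, an expected count with its FPKM. The expected counts deposited by the authors are whole numbers without normalization and were used as they stand. RSEM shares out reads that match several genes, which can give fractions, and whether the values were rounded before deposit is not given in the sources used here. The FPKM deposited by the authors are scaled by transcript length and total, and served only for levels between genes and for 1 alternative. The methods name a human annotation release, whereas the identifiers are mouse Ensembl identifiers, and the mouse release and build are not given in the sources used here. The labels give a body weight of 22 to 25 g and the HiSeq 1000, and the methods give other values for both. Of 38922 identifiers, 37606 matched GENCODE mouse release 21 (GRCm38), and all listed genes matched.

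Genes were kept by filterByExpr (minimum count 10), scaled with TMM factors and tested in edgeR 4.0.16 under R 4.3.3 (glmQLFit and glmQLFTest, no term besides group), with Benjamini-Hochberg adjustment over 13719 genes. Standard errors were derived from the F statistic. Pair ratios used log2(CPM + 0.1), in Python 3.11.15 with pandas 2.3.3 and scipy 1.17.1. Members' counts per mouse were 87 to 3329. Mice of a group differed beyond sampling noise (chi-square per degree of freedom 39.4 to 515), and each was counted as 1 sample. In data simulated for this comparison (13627 genes tested), 200 genes were changed. The test recovered 60% of genes with a true log2 fold change of 1 and 98% of those with 2, and 3.07% of calls were unchanged genes. In the mice 6495 genes were called, and the Benjamini-Hochberg threshold is less strict when more genes change. The simulated recovery therefore need not hold for the test on the mice.

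The 10 genes and all lists were chosen with earlier results of these data known. Named genes are the 10 members, up to 3 genes per list and direction with the largest log2 fold change at an FDR of 0.05 or less, the 5 genes most like the members, and Alb, and 1 gene that meets this rule is not reported here. Others (Wnt2, Wnt9b, Gpr182, Mrc1, Maf, Flt4, Ntn4, Rspo3, F3, Vegfa, Id1, Gata6, Clec4f, Vsig4, Adgre1, C1qb, Csf1r, C1qc, Timd4, C1qa, Cd79b, Ighm, Ccl21a and Prox1) were named after their values were seen. Alternatives were DESeq2 1.42.0, other scalings and filters, a block for replicate number, and fits that each left out 1 mouse. No sequencing or library batch is given in the sources used here.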

Additional observations from a re-analysis of the deposited data

How the results depend on the processing

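The count of 8 members higher and 0 lower was the same under all 7 other settings (DESeq2, RLE factors, total counts only, upper quartile factors, no filter on low counts, at least 10 counts in every mouse, and the replicate number as a block). It was 7 or 8 when each mouse was left out in turn, because the call of Oit3 was lost in 8 of those 10 fits, with a log2 fold change of 0.54 to 0.996 over all 10. The other 7 members kept their calls in all of them. Scaling moved the median of all genes by less than 0.1 on the log2 scale (total counts only, -0.07). Mice with the same replicate number deviated together with correlations of -0.27 to 0.26, of which 2 of 5 were over 0.1. Mice with different numbers were not compared in this way, so these values do not settle whether the number pairs the mice. The standard errors of all members except Kdr were smaller with the replicate block than without it. With the replicate block, 8 members were again higher, and 0 of the 45 pair ratios passed, where the smallest p that the paired test allows is 0.0625. Without the block, 26 pairs passed, 29 with a pseudocount of 1 CPM, 27 with FPKM and 24 to 27 when a mouse was left out. With CPM, which are not divided by length, in place of FPKM, 0 members kept their rank in the order of levels in controls and 2 kept it after CD95-Ab, Lyve1 at rank 1 and Gata4 at rank 10. Among the named genes of the lists, Sox18, Gata2, Cd5l and Hes1 lost their calls in 6 or 7 of the fits without 1 mouse. Among the lists, the number of Kupffer cell genes called higher ranged from 1 to 5 (4 with the replicate block), and that of hepatocyte genes called lower was 5 with DESeq2. Requiring at least 10 counts in every mouse left genes with few counts in some mice untested. Among them were Smad9, Hand2, Sox18, Gata2, Mmp8, Gp9, Ppbp, Pdpn, Cd79a and Ms4a1. This filter lowered the genes called higher from 10 to 5 for endothelial activation, from 6 to 4 for neutrophils and from 4 to 2 for platelets. For lymphatic vessels and the relatives of Gata4 they fell from 2 to 1 each, and 1 B cell gene was called higher. The genes called lower fell from 1 to 0 for the BMP9, stellate and pan-endothelial lists. Genes with a log2 fold change near 1 may be missed at this number of mice, as some were in the simulated data, where far fewer genes changed.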
